A study of Mus musculus with 24 samples.

Results

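The 10 genes described here are core genes of the Notch pathway and its classical transcriptional targets: the ligands Dll1 and Jag1, the receptors Notch1, Notch2 and Notch3, the DNA-binding factor Rbpj, and the target genes Hes1, Hes5, Hey1 and Hey2. They were taken by symbol from the 18647 genes of the count table, and all 10 were found and passed the filter on low counts that left 18153 genes. CA1 of the hippocampus was microdissected from adult C57Bl/6N mice (Charles River) of at least 60 days. Mice were collected 6, 12, 24, 36 or 72 h after status epilepticus (SE), the prolonged seizure evoked with 335 mg/kg pilocarpine hydrochloride, an agonist of muscarinic acetylcholine receptors. Non-SE controls (Ctr) were collected at 12, 36 and 72 h and had saline in place of pilocarpine. All groups had 1 mg/kg scopolamine methyl nitrate, which blocks muscarinic receptors outside the brain, and 4 mg/kg diazepam, which in SE mice was given 40 min after onset. Mice that had pilocarpine but did not develop SE were not included, so the SE groups hold responders only. Each of the 8 groups had 3 libraries, which makes 15 after SE and 9 controls.

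Notch receptors are cleaved when a Delta or Jagged ligand on a neighbouring cell engages them. The released intracellular domain enters the nucleus, binds Rbpj on DNA and, with a Mastermind cofactor, turns on repressors of the Hes and Hey families. In the adult brain the pathway is known for keeping neural stem cells undifferentiated, for its part in astrocytes, and for vessel growth and the maintenance of mural cells.

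Library totals ranged from 2663936 to 30133731 counts, and the smallest was Ctr 72 h replicate 3. Levels are given as CPM, a gene's count scaled to a common library total, after TMM scaling, and levels of different genes are compared only per kilobase of exon. A gene was called differentially expressed (a DEG) where edgeR's quasi-likelihood test gave an adjusted p no higher than 0.05 and the log2 fold change (log2FC) reached 0.66 in either direction, or 1 between SE time points. The labels do not say whether replicates came from separate mice, so p-values measure the spread between these libraries. Markers of CA1 pyramidal cells summed to 853 to 1737 CPM in the controls. In bulk tissue, fewer cells of a type and less RNA per cell cannot be told apart. Ctr 72 h replicate 2 stood apart from the other libraries: the 10 markers of sensory ganglion neurons summed to 1910 CPM in it and to 9.57 to 94.1 CPM in the other controls. The same sum lay between 408 and 1042 CPM in 5 SE libraries and at 75.2 CPM or less in the remaining SE libraries. Without that control, Rbpj, Notch1, Notch2, Notch3 and Dll1 were still called at 72 h, with log2FC values of 0.93, 1.49, 1.14, 1.24 and -0.79, and Jag1 (0.54), Hes1 (-0.49) and Hey1 (0.13) were still not called. Values of Hes5 and Hey2 without it stand beside their results.

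Promoter windows from RefSeq (GRCm38.p6) were matched to 8 of the 10 genes, in 10 windows of 300 bases that run from 250 bases before the start site to 50 after it. Hes1 and Hey1 were not matched. The windows were searched on both strands for GTGGGAA, the core of the Rbpj site, and for its shorter form TGGGAA, which every GTGGGAA also contains. The windows of Hes5, Hey2 and Rbpj are shown because they were the members' windows with a match to either form. Capitals mark the matches, which read as TTCCCAC or TTCCCA where they lie on the opposite strand.
Hes5, chr4:154960673-154960972, plus strand: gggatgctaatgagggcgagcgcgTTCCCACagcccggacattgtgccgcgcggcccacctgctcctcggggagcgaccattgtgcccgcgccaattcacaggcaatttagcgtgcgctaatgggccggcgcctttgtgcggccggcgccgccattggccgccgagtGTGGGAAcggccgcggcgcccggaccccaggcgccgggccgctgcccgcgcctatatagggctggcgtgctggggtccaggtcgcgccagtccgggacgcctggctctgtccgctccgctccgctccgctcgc
Hey2, chr10:30842734-30843033, minus strand: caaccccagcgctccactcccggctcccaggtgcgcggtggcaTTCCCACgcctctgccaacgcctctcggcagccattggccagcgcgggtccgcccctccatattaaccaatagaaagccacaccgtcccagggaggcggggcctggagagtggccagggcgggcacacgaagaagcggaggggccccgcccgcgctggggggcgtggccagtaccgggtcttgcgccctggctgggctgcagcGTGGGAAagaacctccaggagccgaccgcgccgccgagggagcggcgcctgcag
Rbpj, chr5:53590096-53590395, plus strand: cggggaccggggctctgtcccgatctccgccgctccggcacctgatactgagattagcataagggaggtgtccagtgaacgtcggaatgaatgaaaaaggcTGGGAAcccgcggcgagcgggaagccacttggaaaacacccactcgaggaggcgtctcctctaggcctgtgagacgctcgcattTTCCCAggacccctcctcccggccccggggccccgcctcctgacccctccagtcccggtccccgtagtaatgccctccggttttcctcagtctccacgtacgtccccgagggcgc
Hes5 and Hey2 each held 2 copies of GTGGGAA, at -226 and -83 in Hes5 and at -207 and -4 in Hey2, counted from the start site to the left base of the match. Of all 32851 promoter windows of this length, 6.38% held GTGGGAA at least once and 25.6% held TGGGAA. Rbpj held the shorter form only, at -149 and -65 in the window shown, and its second window shares the latter match. The windows of Dll1, Jag1, Notch1, Notch2 and Notch3 held neither form. The N-box CACNAG, to which Hes proteins bind, was found in windows of Dll1, Notch1, Notch2 and Notch3 and in 42.5% of all windows. These matches are descriptions of sequence, and no binding was measured.

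Hes5, a repressor of the Hes family, had the largest fall of the 10 genes. It lies at chr4:155045373-155046828 on GRCm39. In controls it measured 7.29, 8.09 and 3.75 CPM at 12 h, 5.97, 3.60 and 6.24 CPM at 36 h, and 3.46, 0.341 and 5.25 CPM at 72 h. After SE it measured 0.240, 0.980 and 0.425 CPM at 6 h, 0.0994, 1.52 and 0.398 CPM at 12 h, and 0.106, 0.131 and 0.420 CPM at 24 h. At 36 h after SE it measured 0.296, 0.158 and 0.285 CPM, and at 72 h 0.118, 0.286 and 0.780 CPM. All 15 SE libraries lay below every control except Ctr 72 h replicate 2, the library rich in sensory ganglion markers. That control lay within the SE range, and 9 of 15 SE libraries lay below it.

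The loss of Hes5 was called at 6, 12, 24 and 36 h. Against the mean of the controls, log2FC was -2.85 (s.e. 0.59, adjusted p = 0.000818) at 6 h and -4.03 (s.e. 0.68, adjusted p = 8.55e-05) at 24 h, where it was -4.83 without SE 24 h replicate 3. Against the control of the same time it was -3.25 (s.e. 0.60, adjusted p = 0.000287) at 12 h and -4.32 (s.e. 0.68, adjusted p = 6.84e-05) at 36 h. At 72 h it was -2.10 (s.e. 0.84) with an adjusted p of 0.067 and was not called. It was called at 72 h by DESeq2 (-2.20, adjusted p = 0.0194), with no RUVr factor (-2.77), with a ganglion score as the factor (-2.62), with thinned counts (-3.05), with a factor for the number range of the samples in the labels (-4.20) and against the mean of Ctr 12 h and Ctr 36 h (-3.89, adjusted p = 4.14e-05). The number range is confounded with group at 72 h, because the Ctr 72 h libraries share a range that holds no SE 72 h library. The value with that factor thus leans on libraries of other groups. Without Ctr 72 h replicate 2 the value at 72 h was -3.38 (s.e. 0.78, adjusted p = 0.00366), and without SE 72 h replicate 3 it was -3.15 (adjusted p = 0.0278). Without Ctr 72 h replicate 1 or 3 it was -1.40 or -1.42 and was not called. Hes5 at 72 h was likewise not called by limma-voom, with DESeq2's size factors or with library size only. It was also not called with no filter on low counts or with the replicate number as a block. Nor was it called without the 6 libraries richest in ganglion markers. Set against Ctr 72 h alone, the fall at 6 h was -1.65 and was no longer called (adjusted p = 0.137). These values rest on few reads. The 3 libraries at 36 h after SE held 11 Hes5 counts in all against 228 in their controls, a ratio of controls to SE of 18.4 by library totals with a 95% exact interval of 10.1 to 37.4. At 12 h the counts were 53 and 291, with a ratio of 6.54 (4.87 to 8.94). Of those 53 counts, 46 came from SE 12 h replicate 2, and without it the ratio was 25.7 (12.3 to 64.4) and the fitted log2FC -4.78, while without SE 12 h replicate 1 the fitted value was -2.59, and both were called. At 72 h the counts were 21 and 57, with a ratio of 6.21 (3.71 to 10.8). Of the 21, 16 came from SE 72 h replicate 3, and without it the ratio was 14.6 (5.90 to 46.7). Without Ctr 72 h replicate 2 it was 8.41 (5.004 to 14.6). These intervals cover counting error only.

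**Figure D1:**
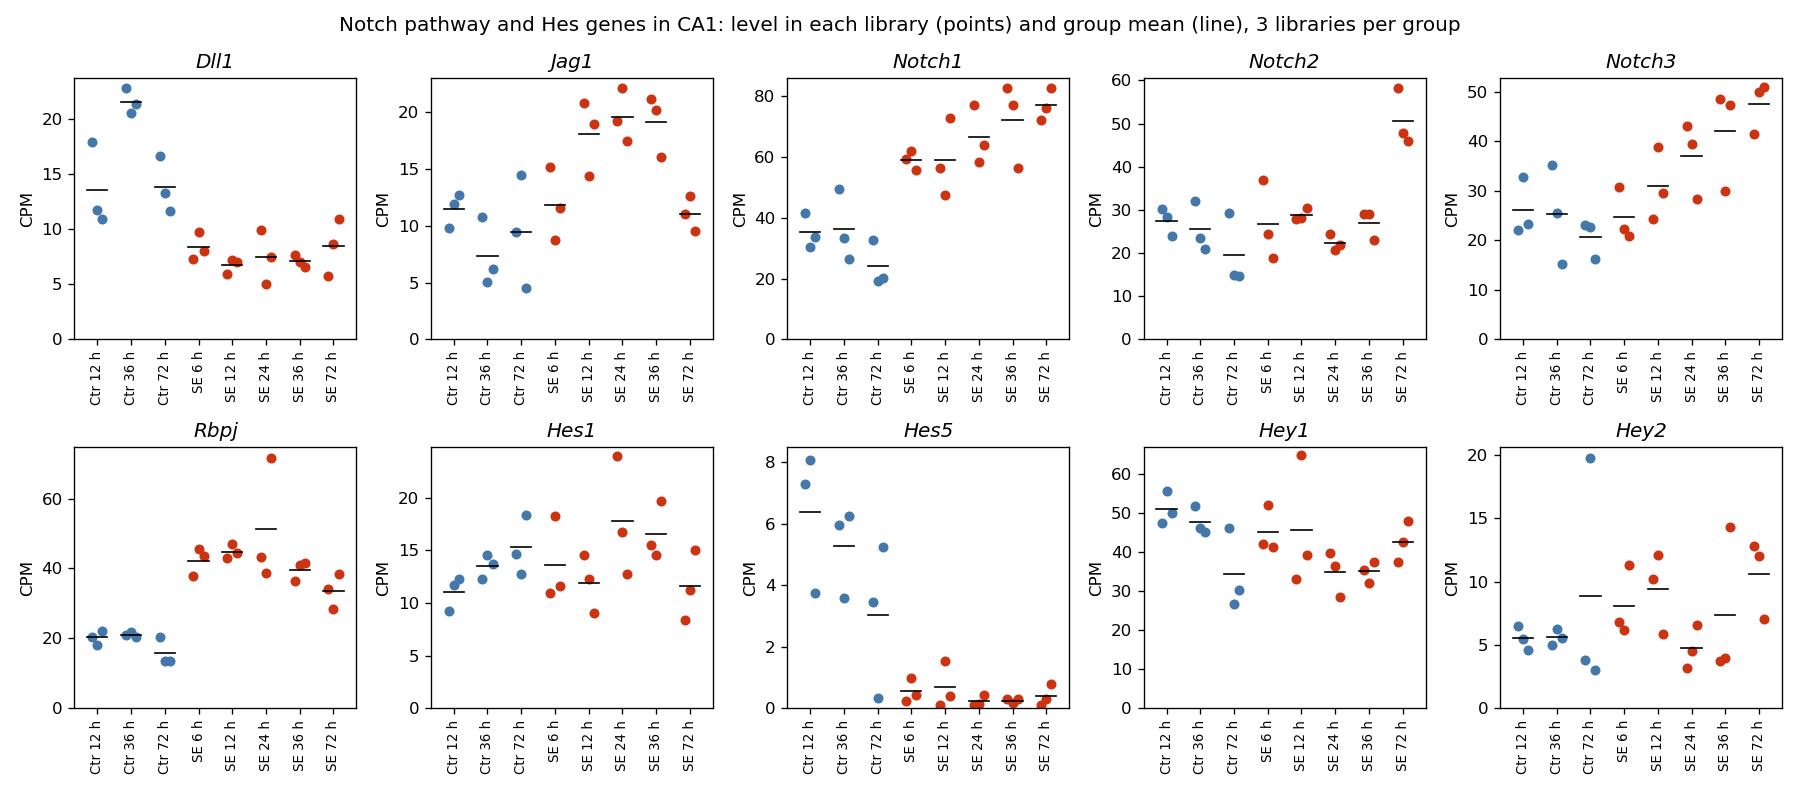
Level of each of the 10 genes in CPM (y axis, starting at 0) in the 8 groups (x axis); points are the 3 libraries of a group, blue for controls and red for SE, and the black line is their mean. Rbpj in all 15 SE libraries lies above the 9 controls, Hes5 and Dll1 are low after SE, the 3 Notch2 libraries at 72 h after SE lie between 45.9 and 58.3 CPM and above all others, and Hes1 and Hey1 overlap between SE and Ctr taken over all times. At 36 h the SE libraries lie above Ctr 36 h for Hes1, by a narrow margin, and below it for Hey1.

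Hes1, the other Hes repressor of the set and the one most used as a Notch readout, was not called at any time. It lies at chr16:29882134-29886643. It measured 9.28 to 12.3 CPM in Ctr 12 h, 12.2 to 14.6 CPM in Ctr 36 h and 12.8 to 18.4 CPM in Ctr 72 h. After SE it measured 10.9 to 18.2 CPM at 6 h, 9.08 to 14.5 CPM at 12 h, 12.8 to 24.0 CPM at 24 h, 14.6 to 19.7 CPM at 36 h and 8.40 to 15.1 CPM at 72 h. Of the 15 SE libraries, 2 lay above all controls and 2 below them. At 36 h all 3 SE libraries lay above the 3 controls, with 14.58 CPM the lowest after SE and 14.56 CPM the highest control. The groups of that time lay apart, in either direction, for 51.9% of all genes tested. The fitted log2FC was 0.04 (s.e. 0.21) at 6 h, 0.11 (s.e. 0.25) at 12 h, 0.43 (s.e. 0.20) at 24 h, 0.30 (s.e. 0.25) at 36 h and -0.38 (s.e. 0.26) at 72 h. The lowest adjusted p of these was 0.0946, at 24 h. Against Ctr 12 h alone the value at 24 h was 0.67 and was called (adjusted p = 0.0479). With these errors a change below the DEG threshold could not be told from no change.

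Hey1 and Hey2, repressors that act downstream of Notch in vessels and also in neural cells, differed little or unevenly. Hey1, at chr3:8726956-8732385, was the highest of the 10 genes per kilobase, with 9.27 ± 2.01 CPM per kb (SD, n = 9) in the controls and 8.50 ± 1.87 (SD, n = 15) after SE. Its log2FC lay between -0.44 (s.e. 0.19, adjusted p = 0.083, at 36 h) and 0.30 (s.e. 0.20, adjusted p = 0.272, at 72 h). At 36 h all 3 SE libraries lay below the 3 controls, at 32.2 to 37.6 against 45.3 to 51.9 CPM. The 2 groups lay apart, in either direction, for 51.9% of all genes tested at that time. Hey2, at chr10:30708350-30718828, measured 2.9995 to 6.53 CPM in 8 of 9 controls and 19.8 CPM in Ctr 72 h replicate 2. After SE it measured 6.17 to 11.3 CPM at 6 h, 5.90 to 12.1 CPM at 12 h, 3.19 to 6.59 CPM at 24 h, 3.71 to 14.4 CPM at 36 h and 7.02 to 12.8 CPM at 72 h. No SE library lay outside the control range, which the 1 high control sets.

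Hey2 was not called in any of the 5 comparisons with controls. Its log2FC was 0.78 (s.e. 0.36, adjusted p = 0.0932) at 12 h and 0.79 (s.e. 0.39, adjusted p = 0.137) at 72 h. Without Ctr 72 h replicate 2 the value at 72 h was 1.59 (adjusted p = 0.0436), and without SE 12 h replicate 3 that at 12 h was 1.06 (adjusted p = 0.0417). It was also called at 12 h by limma-voom (0.90, adjusted p = 0.0383) and at 72 h against the mean of Ctr 12 h and Ctr 36 h (0.90, adjusted p = 0.0249). The level of Hey2 moved with the sensory ganglion markers. The 6 libraries with the highest ganglion sums, 408 to 1910 CPM, held 10.2 to 19.8 CPM of Hey2, while the other 18 held 2.9995 to 12.1 CPM. With these 6 libraries left out, the Hey2 log2FC at 36 h went from 0.29 to -0.55, and at 72 h it was 0.99 (adjusted p = 0.172). The part of ganglion RNA in the Hey2 values was not tested further.

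**Figure D2:**
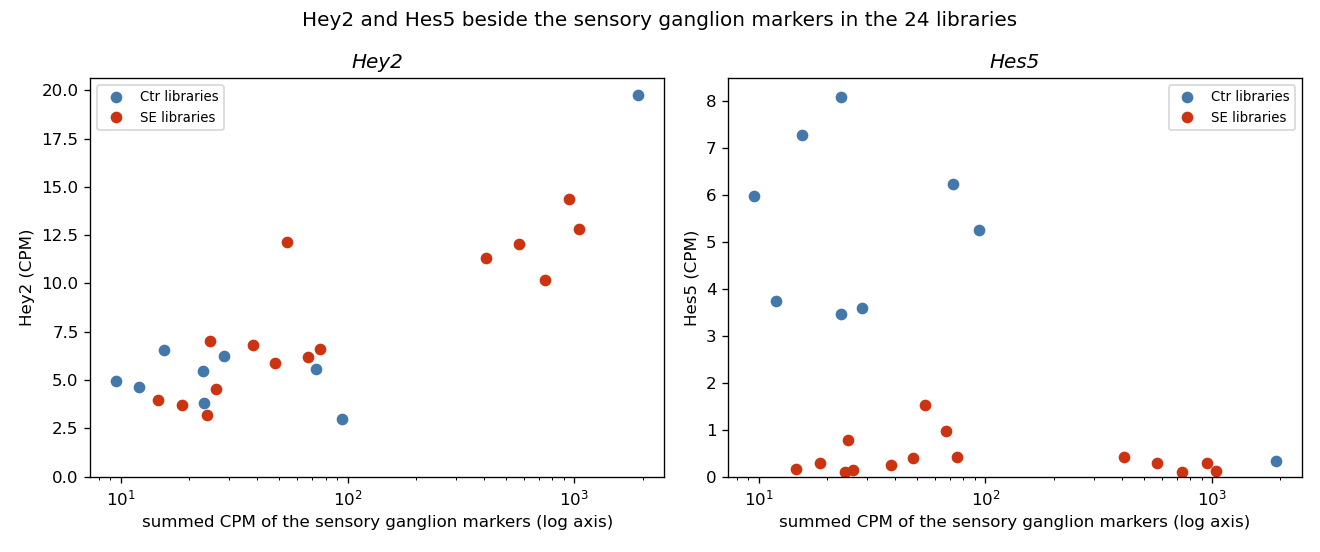
Hey2 (left) and Hes5 (right) in CPM on the y axis against the summed CPM of the 10 sensory ganglion markers on a log x axis, 1 point per library, blue for the 9 controls and red for the 15 SE libraries. The 6 libraries above 400 CPM on the x axis hold 10.2 to 19.8 CPM of Hey2, and the 1 control among them, at 1910 CPM, holds 0.341 CPM of Hes5.

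Rbpj, the factor through which all 4 receptors act on DNA, was higher in all 15 SE libraries than in any of the 9 controls. It lies at chr5:53623494-53814704. The controls measured 20.3, 18.2 and 22.2 CPM at 12 h, 20.9, 21.8 and 20.4 CPM at 36 h, and 20.4, 13.6 and 13.5 CPM at 72 h. The SE libraries measured 37.7, 45.6 and 43.5 CPM at 6 h, 43.1, 46.9 and 44.4 CPM at 12 h, and 43.2, 38.8 and 71.7 CPM at 24 h. They measured 36.3, 40.9 and 41.5 CPM at 36 h and 34.1, 28.4 and 38.3 CPM at 72 h. The lowest SE value was thus above the highest control, 22.2 CPM. The share of all genes whose SE libraries lay likewise outside the range of all 9 controls was not computed, for Rbpj or any gene here. Rbpj was called at every time, with a log2FC of 1.15 (s.e. 0.14, adjusted p = 4.39e-06) at 6 h, 1.14 (s.e. 0.19, adjusted p = 8.66e-05) at 12 h, 1.43 (s.e. 0.14, adjusted p = 1.26e-07) at 24 h, 0.91 (s.e. 0.19, adjusted p = 0.000786) at 36 h and 1.05 (s.e. 0.20, adjusted p = 0.000435) at 72 h. Per kilobase it went from 1.48 ± 0.26 CPM per kb (SD, n = 9) to 3.29 ± 0.74 (SD, n = 15). Against the mean of Ctr 12 h and Ctr 36 h, the log2FC of Rbpj at 72 h was 0.70 and was still called. These earlier controls were chosen after the low Ctr 72 h levels were seen.

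Notch1, the receptor best known for neural stem cells and arteries, was also called higher at every time. It lies at chr2:26347915-26406675. The controls measured 30.4 to 41.7 CPM at 12 h, 26.5 to 49.3 CPM at 36 h and 19.3 to 32.6 CPM at 72 h. The SE libraries measured 55.9 to 62.0 CPM at 6 h, 47.5 to 73.0 CPM at 12 h, 58.3 to 77.3 CPM at 24 h, 56.6 to 82.8 CPM at 36 h and 72.2 to 82.8 CPM at 72 h. Of the 15 SE libraries, 14 lay above all 9 controls, and at each of 12, 36 and 72 h the SE and Ctr libraries did not overlap. At these times 47.7%, 51.9% and 32.8% of all genes tested lay apart likewise, in either direction. The log2FC was 0.91 (s.e. 0.16, adjusted p = 0.00019) at 6 h, 0.74 (s.e. 0.21, adjusted p = 0.00745) at 12 h, 1.08 (s.e. 0.16, adjusted p = 2.18e-05) at 24 h, 0.98 (s.e. 0.21, adjusted p = 0.00107) at 36 h and 1.66 (s.e. 0.22, adjusted p = 9.92e-06) at 72 h. Without SE 12 h replicate 3 the value at 12 h was 0.57 and was not called (adjusted p = 0.0554).

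Notch2, a receptor found in glia and vessels, was called higher at 72 h and was not called at an earlier time. It lies at chr3:97920800-98057677. At 72 h after SE it measured 58.3, 47.7 and 45.9 CPM, above the 29.3, 14.8 and 14.6 CPM of Ctr 72 h and above every other library. The SE and Ctr groups of 72 h lay apart, in either direction, for 32.8% of all genes tested. At 6, 12, 24 and 36 h after SE Notch2 measured 18.9 to 37.0 CPM, and Ctr 12 h and Ctr 36 h measured 20.9 to 32.1 CPM. Its log2FC at 72 h was 1.35 (s.e. 0.23, adjusted p = 0.000227). Against the mean of Ctr 12 h and Ctr 36 h, chosen after the low Ctr 72 h levels were seen, it was 0.94 (s.e. 0.19, adjusted p = 0.000457). The log2FC at the other times lay between -0.11 and 0.15, with adjusted p-values of 0.545 to 0.824.

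Notch3, the receptor of arterial smooth muscle and pericytes, was called at 36 and 72 h. It lies at chr17:32339794-32385893. The controls measured 15.3 to 35.1 CPM over all times. The SE libraries measured 20.8 to 30.8 CPM at 6 h, 24.3 to 38.9 CPM at 12 h, 28.4 to 43.0 CPM at 24 h, 30.03 to 48.6 CPM at 36 h and 41.5 to 50.9 CPM at 72 h. Only at 72 h did all SE libraries lie above all controls. The SE and Ctr groups of that time lay apart, in either direction, for 32.8% of all genes tested. The log2FC was 0.03 (s.e. 0.22, adjusted p = 0.92) at 6 h, 0.25 (s.e. 0.27, adjusted p = 0.485) at 12 h, 0.62 (s.e. 0.21, adjusted p = 0.0253, below the fold threshold) at 24 h, 0.73 (s.e. 0.27, adjusted p = 0.0437) at 36 h and 1.17 (s.e. 0.28, adjusted p = 0.0038) at 72 h. The call at 36 h was lost when replicate 2 or 3 of Ctr 36 h, or replicate 1 or 3 of SE 36 h, was omitted, with log2FC values of 0.73, 0.47, 0.61 and 0.63. It was also lost with thinned counts (0.51), without the 6 ganglion-rich libraries (0.63) and with the factor for the sample number range (0.70), and the last setting ended the call at 72 h too (0.82, adjusted p = 0.179). Notch3 passed at 24 h without Ctr 12 h replicate 2, Ctr 36 h replicate 1 or SE 24 h replicate 3, with 0.69, 0.72 and 0.78, and against Ctr 72 h alone, with 0.81.

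Dll1, a Delta ligand, was called lower at every time, at 72 h with a call that depended on the setting. It lies at chr17:15587276-15597134. The controls measured 17.9, 11.8 and 10.9 CPM at 12 h, 22.8, 20.6 and 21.4 CPM at 36 h, and 16.6, 13.3 and 11.6 CPM at 72 h. The SE libraries measured 7.27 to 9.70 CPM at 6 h, 5.96 to 7.19 CPM at 12 h, 5.05 to 9.88 CPM at 24 h, 6.55 to 7.63 CPM at 36 h and 5.74 to 10.96 CPM at 72 h. Of the 15 SE libraries, 14 lay below all 9 controls. The log2FC was -0.95 (s.e. 0.21, adjusted p = 0.00142) at 6 h, -1.00003 (s.e. 0.24, adjusted p = 0.00312) at 12 h, -1.12 (s.e. 0.21, adjusted p = 0.000317) at 24 h, -1.61 (s.e. 0.25, adjusted p = 4.97e-05) at 36 h and -0.74 (s.e. 0.25, adjusted p = 0.0327) at 72 h. The call at 72 h was lost without Ctr 72 h replicate 1 (-0.58) or SE 72 h replicate 1 (-0.52) or 2 (-0.76). It was also lost without the 6 ganglion-rich libraries (-0.41, adjusted p = 0.484), with thinned counts (-0.71), in a fit of the compared groups only (-0.72) and with that factor for the sample number range (-1.08).

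Jag1, a Jagged ligand, moved the other way from Dll1 at 24 and 36 h. It lies at chr2:136923373-136958693. The controls measured 9.84 to 12.7 CPM at 12 h, 5.01 to 10.8 CPM at 36 h and 4.50 to 14.5 CPM at 72 h. The SE libraries measured 8.72 to 15.2 CPM at 6 h, 14.4 to 20.8 CPM at 12 h, 17.4 to 22.1 CPM at 24 h, 16.1 to 21.2 CPM at 36 h and 9.50 to 12.6 CPM at 72 h. SE and Ctr libraries did not overlap at 12 and 36 h, where 47.7% and 51.9% of all genes tested lay apart likewise. At 72 h the SE range of Jag1 lay within the control range. The log2FC was 1.08 (s.e. 0.20, adjusted p = 0.000286) at 24 h and 1.40 (s.e. 0.27, adjusted p = 0.000475) at 36 h. It was 0.36 (s.e. 0.21, adjusted p = 0.194) at 6 h, 0.64 (s.e. 0.26, adjusted p = 0.0578) at 12 h and 0.24 (s.e. 0.28, adjusted p = 0.568) at 72 h. Without SE 12 h replicate 2 it passed at 12 h, with 0.79 (adjusted p = 0.038). It also passed there with DESeq2 (0.67, adjusted p = 0.0288), with DESeq2's size factors (0.67), with a minimum of 10 counts in every library (0.68) and with thinned counts (1.09, adjusted p = 0.00928).

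Counting took no account of strand, so genes that overlap another gene on the other strand are uncertain. Dll1 shares 27.6% of its exon bases with Fam120b, Notch1 shares 14% with 0610009E02Rik and Notch3 shares 8.92% with Gm17276, each on the opposite strand. Per kilobase in the 9 controls, Hey1 was followed by Hes1 (3.94 ± 0.75 CPM per kb), Hes5 (3.57 ± 1.73), Dll1 (3.29 ± 0.93), Notch3 (2.66 ± 0.73), Notch1 (2.24 ± 0.67), Notch2 (2.15 ± 0.57), Jag1 (1.58 ± 0.59), Rbpj (1.48 ± 0.26) and Hey2 (1.36 ± 1.03; all SD, n = 9). From Hes1 down, each gene differed from the next by less than the larger of their SDs.

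**Figure D3:**
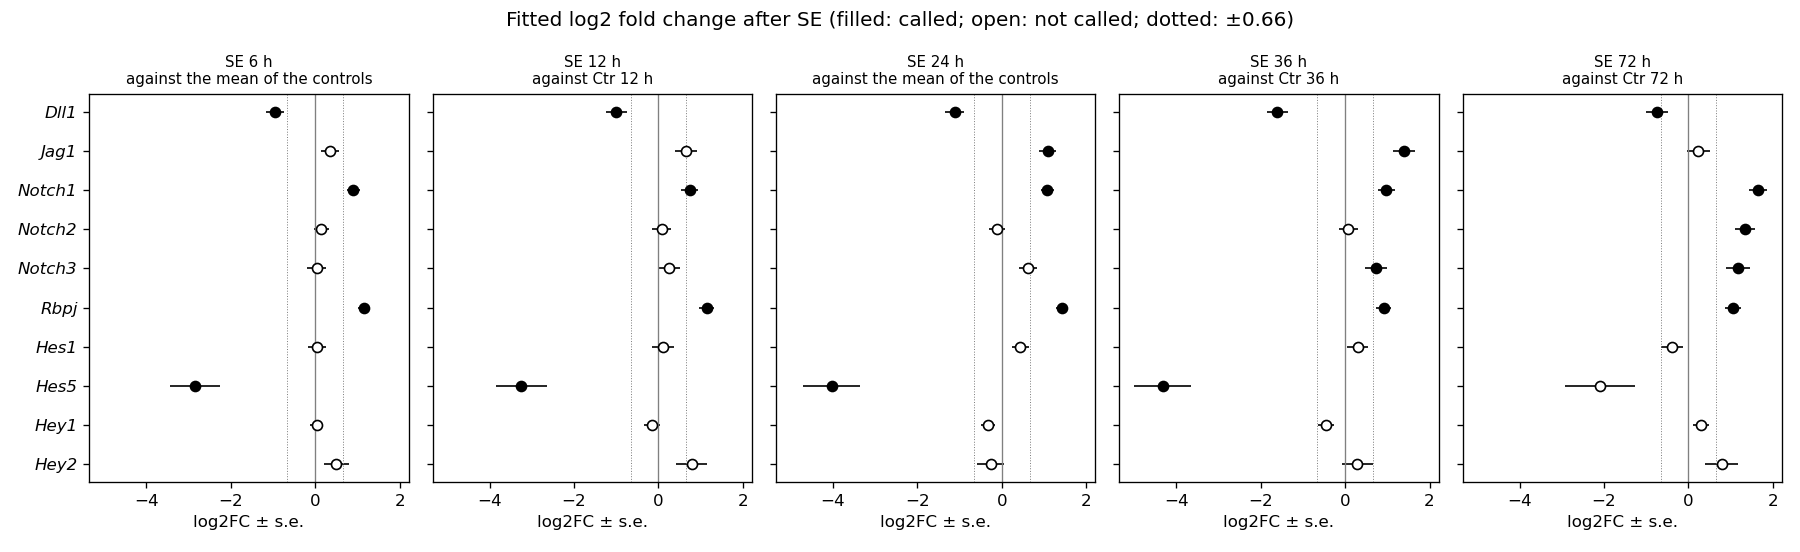
Fitted log2FC of each gene with its s.e. (x axis) in the 5 comparisons of SE with control (panels); filled points were called, open points were not, and dotted lines mark the fold threshold of 0.66. Rbpj and Notch1 are filled to the right and Dll1 to the left in every panel, and Hes5 is filled on the left except at 72 h.

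Counted by comparison, 4 of the 10 genes were called at 6 h, with 2 higher and 2 lower, where 15.8% of all genes tested were called higher and 6.21% lower. At 12 h the count was again 4, with 2 higher and 2 lower, against 13.9% and 11.4% of all genes. At 24 h it was 5, with 3 higher and 2 lower, against 14.9% and 9.21%. At 36 h it was 6, with 4 higher and 2 lower, against 12.7% and 8.91%. At 72 h it was 5, with 4 higher and 1 lower, against 15.2% and 4.2%. The median log2FC of the 10 genes was, in order of time, 0.10, 0.18, 0.16, 0.30 and 0.54, and that of all genes was 0.06, 0.01, 0.04, 0.00326 and 0.10. The 3 control groups served both the comparison at 6 h and that at 24 h, so these 2 are not independent of each other or of the rest.

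Between consecutive SE time points, edgeR called none of the 10 genes, while it called 1.34% of all genes from 6 to 12 h, 3.18% from 12 to 24 h, 0.529% from 24 to 36 h and 4.13% from 36 to 72 h. At an unadjusted p under 0.05 the counts were 1, 2, 0 and 2, a cutoff for which the share of all genes was not computed. limma-voom also called none in any step, and DESeq2 called 1, Hey2 from 12 to 24 h, which gave -1.00241 (s.e. 0.36, adjusted p = 0.0884) in edgeR. Nearest to a call in edgeR was Notch2 from 36 to 72 h, with a log2FC of 0.92 (s.e. 0.22, adjusted p = 0.0127), under the fold threshold for this kind of comparison. Jag1 over the same step gave -0.81 (s.e. 0.26, adjusted p = 0.0546), with all 3 libraries at 72 h below those at 36 h.

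The SE effect, taken as SE minus control at the same time, differed between time points for 2 receptors. From 12 to 72 h it differed for Notch1, by 0.91 on the log2 scale (s.e. 0.30, adjusted p = 0.0324), and for Notch2, by 1.27 (s.e. 0.32, adjusted p = 0.00855), where 18.6% of all genes were called. From 36 to 72 h it differed for Notch2, by 1.27 (s.e. 0.32, adjusted p = 0.0274), where 4.81% were called. From 12 to 36 h none of the 10 genes was called by edgeR, none at an unadjusted p under 0.05 and none by DESeq2 or limma-voom, and 3.38% of all genes were. These differences draw on Ctr 72 h, in which Notch1 and Notch2 had their lowest control means of 24.0 and 19.6 CPM. The calls of Notch1 from 12 to 72 h and of Notch2 from 36 to 72 h were lost without Ctr 72 h replicate 2, with 0.75 and 1.05. The first also failed to pass when replicate 1 of Ctr 12 h, replicate 1 or 2 of SE 12 h, or replicate 2 or 3 of SE 72 h was omitted, at 0.78 to 0.92. The second failed likewise when replicate 1 of Ctr 36 h, replicate 3 of SE 36 h or replicate 1 of SE 72 h was omitted, at 1.07, 1.16 and 1.15. Among the control groups themselves edgeR called none of the 10 genes, and 0%, 0.931% and 1.96% of all genes for 36 against 12 h, 72 against 12 h and 72 against 36 h. At an unadjusted p under 0.05 the counts of the 10 genes were 2, 3 and 4. The share of all genes at that cutoff was not computed, so these counts do not show a drift particular to the 10 genes.

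The other genes of the pathway moved in both directions. Of 58 further pathway genes listed, 56 were in the table and were tested (Hes2 and Hes3 were not in it). The numbers called higher and lower were 6 and 6 at 6 h, 6 and 8 at 12 h, 10 and 8 at 24 h, 8 and 5 at 36 h, and 9 and 3 at 72 h. As shares of the 56 these were 10.7% and 10.7% at 6 h, 10.7% and 14.3% at 12 h, 17.9% and 14.3% at 24 h, 14.3% and 8.93% at 36 h, and 16.1% and 5.36% at 72 h, to be read against the shares of all genes given above for each time. Their median log2FC lay between -0.0721 and 0.0606, and that of all genes between 0.00326 and 0.0966. In all, 23 of them were called in at least 1 of the 5 comparisons, and of the 69 calls so made 48 were kept when any 1 library of the compared groups was left out. The matching shares over all genes were not computed, so neither count is read as particular to the pathway.

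Of the ligands and receptors outside the 10 genes, Dll4 and Notch4 were called higher in all 5 comparisons, though not in every setting. Dll4, the Delta ligand of endothelial tip cells, measured 0.171 to 4.50 CPM in controls and 2.54 to 18.9 CPM after SE and was called higher in all 5 comparisons, with a log2FC of 2.66 (s.e. 0.19, adjusted p = 1.37e-09) at 24 h. Its value at 72 h, 0.99, became -0.31 without Ctr 72 h replicate 2, and it was also not called without SE 72 h replicate 2 (0.89) or replicate 3 (0.97). Without Ctr 72 h replicate 1 or 3 it was 1.63 or 1.60. Of 21 alternative settings, 8 kept the Dll4 call at 72 h. DESeq2, limma-voom, no RUVr factor, the ganglion score and the earlier controls were among those that lost it. At 12 h 18 of 21 kept the call, which was lost with no RUVr factor, with thinned counts and with a log2FC threshold of 1. Notch4, the endothelial receptor, measured 11.3 to 20.9 CPM in controls and 22.04 to 79.2 CPM after SE, with no overlap, and was called higher in all 5, with 2.15 (s.e. 0.23, adjusted p = 7.72e-07) at 36 h. Its call at 12 h was lost without SE 12 h replicate 3 (0.63), and that at 6 h without SE 6 h replicate 3 (0.59) or any 1 of 4 controls, replicates 1 and 3 of Ctr 12 h, replicate 3 of Ctr 36 h and replicate 1 of Ctr 72 h. At 6 h 19 of 30 alternative settings kept the Notch4 call. At 72 h it was lost with the factor for the sample number range and without the 6 ganglion-rich libraries.

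Among the enzymes, those that cut the receptor did not move together. Furin, which cuts the receptor on its way to the surface, was called higher at 6, 12, 24 and 36 h, with 2.03 (s.e. 0.19, adjusted p = 1.92e-07) at 12 h. Adam17, a protease that can shed the ectodomain, was called higher at 24, 36 and 72 h, with 1.30 (s.e. 0.15, adjusted p = 1.8e-06) at 72 h. The gamma-secretase subunits Aph1b and Aph1c were lower, Aph1b in all 5 comparisons and Aph1c in all but 72 h, with -1.18 (s.e. 0.18) and -1.55 (s.e. 0.16) at 36 h. Psenen, another subunit, was called higher at 24 and 36 h. Lfng, a glycosyltransferase that changes which ligand a receptor answers to, was lower at 12 h (-1.43, s.e. 0.32, adjusted p = 0.00175) and higher at 72 h (1.23, s.e. 0.33, adjusted p = 0.00869), and this SE effect differed between 12 and 72 h by 2.67 (s.e. 0.46, adjusted p = 0.000626). Mfng, of the same family, was called at 72 h, and Pofut1, which adds the first sugar, was called lower at 6 and 24 h. Neurl1b, a ubiquitin ligase that acts on Delta ligands, was lower in all 5 comparisons, from 82.7 to 106 CPM in controls to 18.4 to 46.0 CPM after SE, and Dtx2, of the Deltex family, was called higher in all 5. The call of Dtx2 at 72 h, 0.68, became 0.10 without Ctr 72 h replicate 2, or 0.64 when SE 72 h replicate 3 was omitted, and that at 36 h was lost without Ctr 36 h replicate 3 (0.50) or SE 36 h replicate 2 (0.56). The call of Aph1b was lost at 12 h without Ctr 12 h replicate 1 (-0.62) or SE 12 h replicate 3 (-0.59), and at 72 h without Ctr 72 h replicate 2 (-0.47) or SE 72 h replicate 1 (-0.54). That of Mfng was lost without Ctr 72 h replicate 1 (0.88) or SE 72 h replicate 2 (0.85). That of Pofut1 at 24 h was lost without SE 24 h replicate 3 (-0.52), and at 6 h without SE 6 h replicate 2 or 3 (-0.63 each) or Ctr 12 h replicate 2 (-0.64). Adam17 lost its call at 36 h without SE 36 h replicate 1 (0.64), and at 24 h without SE 24 h replicate 1 or 3, Ctr 12 h replicate 3 or Ctr 72 h replicate 2. Of 22 alternative settings, 12 kept the call of Dtx2 and 14 that of Aph1b at 72 h.

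Among the nuclear cofactors, Maml3, a Mastermind coactivator, was called higher in all 5 comparisons, with 0.682 to 8.08 CPM in controls and 8.58 to 20.2 CPM after SE. Its log2FC at 72 h was 2.23, or 3.41 when replicate 1 of Ctr 72 h was omitted and 1.52 when replicate 2 was, and was called in each case. Maml2 was called higher at 24, 36 and 72 h and Maml1 at 24 h. Tle2, a Groucho-type corepressor that Hes proteins recruit, was called lower in all 5, with -1.41 (s.e. 0.16, adjusted p = 1.31e-06) at 36 h, while Tle3 was called higher at 6, 12 and 24 h. Tle1 was called higher at 72 h, Tle4 lower at 12 h and Cir1 lower at 6, 12 and 24 h. Of the other target genes, Hes6 was called lower at 12 and 24 h and Hes7 lower at 24 h. Of these genes, Maml2 lost its call at 72 h without SE 72 h replicate 1 (0.86) and at 24 h without SE 24 h replicate 2 (0.63), and Maml1 lost its call without any 1 of 6 libraries, SE 24 h replicate 3 (0.54), replicates 2 and 3 of Ctr 12 h, replicate 3 of Ctr 36 h and replicates 2 and 3 of Ctr 72 h. Tle1 was lost without SE 72 h replicate 1 (0.65), Tle4 and Hes6 at 12 h without Ctr 12 h replicate 2 (-0.64 and -0.60), and Hes7 without SE 24 h replicate 1 (-1.42) or replicate 3 (-2.03). Cir1 was lost at 12 h without Ctr 12 h replicate 3 (-0.63) or replicate 2 or 3 of SE 12 h (-0.60 and -0.57), and at 24 h without SE 24 h replicate 1 (-0.63). Tle1 was also lost against the mean of Ctr 12 h and Ctr 36 h and without the 6 ganglion-rich libraries. Of 30 alternative settings, 14 kept the call of Maml1, and DESeq2, limma-voom and no RUVr factor were among those that lost it. Of 22 settings, 13 kept that of Cir1 at 12 h. Heyl and Nrarp, targets named here after their values were seen, were not called, and Nrarp, which feeds back on the receptor, had a log2FC of -1.18 (s.e. 0.47, adjusted p = 0.0516) at 12 h. Dlk2, a non-canonical ligand, was called lower at 36 h.

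**Figure D4:**
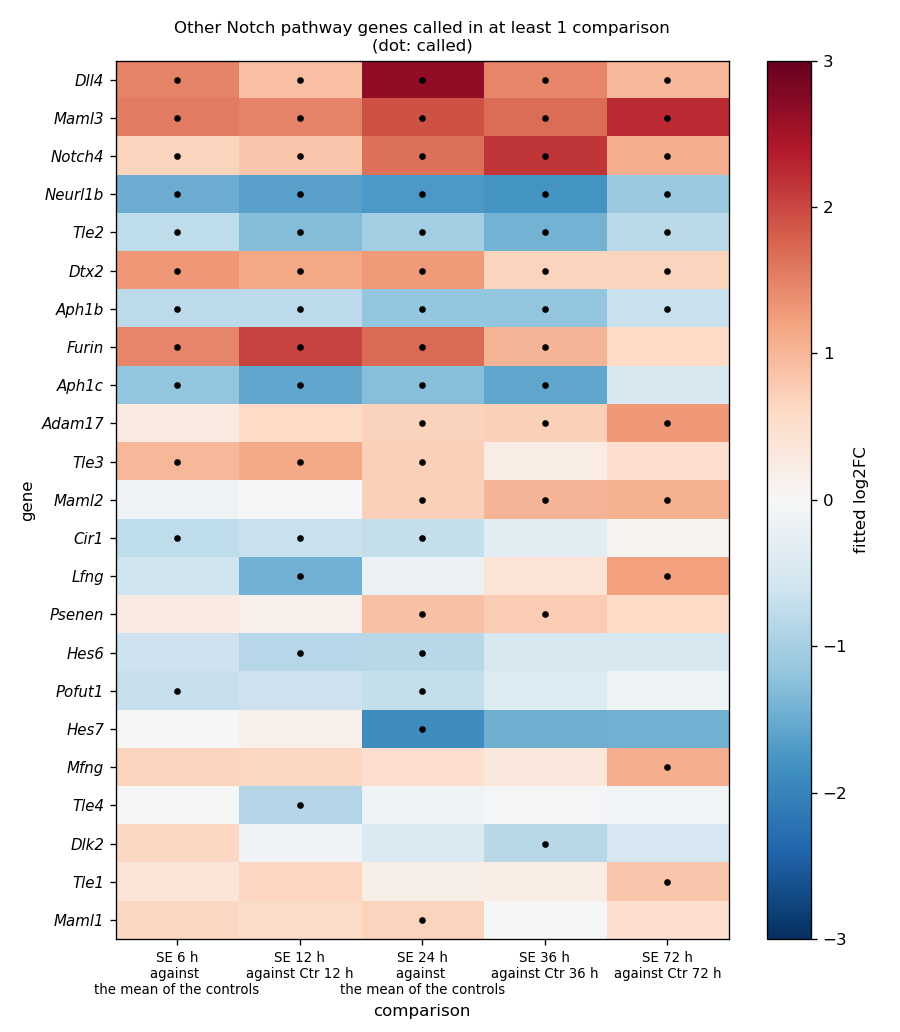
Fitted log2FC (colour scale, red higher and blue lower after SE) of the 23 further Notch pathway genes called in at least 1 of the 5 comparisons of SE with control, with genes in rows, comparisons in columns and a dot where the gene was called. Dll4, Maml3, Notch4 and Dtx2 carry dots in all 5 columns in red, and Neurl1b, Tle2 and Aph1b in blue.

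Across all 24 libraries the gene whose log2 CPM was most like that of Hes5 was Pacs1 (Pearson r = 0.910), followed by Tle2 (0.894), Rpusd1 (0.881), Ehmt2 (0.878) and Trim46 (0.875). For Hes1 the closest genes were Mrpl30 (0.722), Gap43 (0.699), Galnt9 (0.697), Vti1b (0.679) and Sdhb (0.678). These are descriptions over 24 libraries that share their groups.

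Markers of several cell types moved over the same times. The 10 astrocyte markers, none at 0 in any library, summed to 4913 to 6161 CPM in the controls, 5598 to 9440 CPM from 6 to 36 h after SE and 13143 to 14697 CPM at 72 h. In this sum Slc1a2 and Gfap had the highest medians (2365 and 2104 CPM), so it mostly follows a few genes. At 24 h, 3 of the 10 were called higher and 6 lower, and at 72 h 5 were called higher and none lower. The 10 microglia markers, none at 0, summed to 376 to 460 CPM in controls and 1643 to 2352 CPM at 72 h after SE, where all 10 were called higher. Notch2 and Notch3 had their highest group means in the same 72 h libraries, 50.6 and 47.4 CPM. The 10 endothelial markers, none at 0, summed to 295 to 421 CPM in controls and 406 to 591 CPM after SE, beside the higher Notch1, Dll4 and Notch4. Of these 10 markers, 5 were called higher and 3 lower at 6 h, 5 and 2 at 12 h, 6 and 2 at 24 h, 4 and 2 at 36 h, and 3 and none at 72 h. The 9 tested markers of mural cells summed to 253 to 404 CPM in controls and 418 to 470 CPM at 72 h after SE, where 3 were called higher, beside Notch3. The 7 markers of neural progenitors of the subgranular zone summed to 72.7 to 116 CPM in controls and 242 to 420 CPM from 24 to 72 h after SE, a sum in which Nes and Sox2 had the highest medians (64.2 and 39.2 CPM). Of the 7, 4 were called higher and 1 lower at 24 h, 4 and 2 at 36 h, and 3 and 1 at 72 h, and Eomes was at 0 in 4 libraries. Of the 6 CA1 pyramidal cell markers, 4 were called lower at 36 h and none higher, and none was called at 12 h. The 6 summed to 694 to 887 CPM at 12 h, 763 to 942 CPM at 36 h and 358 to 793 CPM at 72 h after SE. Their sum in Ctr 36 h, 1594 to 1737 CPM, lay above that in Ctr 12 h (853 to 1272 CPM) and Ctr 72 h (931 to 1185 CPM). The calls at 36 h thus rest on the highest control group. The part of cell composition in the values of the Notch genes was not tested.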

How the data were processed

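CA1 RNA of 24 libraries was analysed. The authors merged lanes, trimmed reads with Trim Galore 0.6.6, aligned them with STAR 2.7.8a to GRCm39, sorted with SAMtools 1.10 and counted GENCODE M26 genes with HTSeq 0.13.5 without strand, and deposited raw counts without normalization. Groups came from the labels. Symbols, positions and exon lengths came from GENCODE M39 on the same build, which matched 18552 of 18647 genes.

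R 4.3.3, edgeR 4.0.16, DESeq2 1.42.0 and limma 3.58.1 were used. Counts were TMM-normalized, cut to the 18153 genes that filterByExpr kept, and modelled over all 24 libraries by their 8 groups plus 1 RUVr factor estimated from residuals. That factor mainly set Ctr 72 h replicate 2 (-0.80), the ganglion-rich control, against replicates 1 and 3 of Ctr 72 h (0.38 and 0.37). It lay between -0.14 and 0.0976 in the libraries of all other groups. The RUVr step was written out, not taken from a package. edgeR's quasi-likelihood test was adjusted by Benjamini-Hochberg over all genes tested. The comparisons were SE against Ctr at 12, 36 and 72 h, the SE groups of 6 and 24 h against the average of all 3 Ctr groups (no control at these times was analysed here), consecutive SE times, and differences of the SE effect. The fit was tested on simulated data with 200 changed genes. Library totals of 2663936 to 30133731 counts set the precision, and no fewer than 10 counts in each library were seen for 11913 genes. Replicates differed by more than sampling noise in every pair.

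Named are all 10 members, the other pathway genes called in at least 1 comparison with control (at most 25), and the 5 genes most like Hes1 and Hes5 whose mean log2 CPM reached 1. The members and lists were chosen with earlier results of these data known, and 2 further pathway genes are not reported here. Alternatives were other tools, normalizations, filters, thresholds, covariates and controls, thinned counts and the omission of each library. A ganglion score in place of RUVr, the omission of the 6 ganglion-rich libraries, earlier controls for 72 h, fits without Ctr 72 h replicate 2 and pooled Hes5 counts with 1 library left out were chosen after seeing the data. Promoter windows came from RefSeq (GRCm38.p6).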

Additional observations from a re-analysis of the deposited data

Results flagged for a closer look

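The SE effect at 72 h exceeded that at 12 h for Notch1, by 0.91 on the log2 scale (s.e. 0.30, adjusted p = 0.0324), and for Notch2, by 1.27 (s.e. 0.32, adjusted p = 0.00855), in edgeR's test of the difference. The SE effect at 72 h exceeded that at 36 h for Notch2, by 1.27 (s.e. 0.32, adjusted p = 0.0274). For 72 h minus 12 h, 2 of the 10 genes were thus called, near the share of 18.6% of all genes. For 72 h minus 36 h it was 1 of the 10, against 4.81% of all genes. All 3 differences used Ctr 72 h, which held the smallest library and the library rich in sensory ganglion markers. Of 27 alternatives each, 14 kept the call of Notch1 between 12 and 72 h, 24 that of Notch2 between 12 and 72 h, and 17 that of Notch2 between 36 and 72 h. All kept the direction, with log2 values of 0.71 to 1.22, 0.75 to 1.70 and 0.79 to 1.70.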

How the results depend on the processing

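The 10 genes called numbered 4, 6, 5, 4 and 5 (SE 12, 36, 72, 6 and 24 h against control). With a log2FC threshold of 1 in place of 0.66, 3 were called for SE 36 h, 2 for SE 6 h, 3 for SE 12 h, 4 for SE 72 h and 1 for the SE effect at 72 h minus 12 h. Across the other settings the counts were 4 to 5 (SE 12 h), 5 to 6 (SE 36 h), 4 to 7 (SE 72 h), 3 to 4 (SE 6 h) and 4 to 6 (SE 24 h), library omissions aside, and the genes that moved are named beside their results. The share of all genes called also depends on the setting and is not given for each. A count that moved is therefore not read as particular to the 10 genes. From 36 to 72 h after SE, 1 gene was called with a threshold of 0.66, with none, or with a score of ganglion markers replacing the RUVr factor, and 0 to 1 when 1 library was left out. DESeq2 called 1 from 12 to 24 h. For the SE effect at 72 h minus 12 h, 1 was called with no RUVr factor, limma-voom, thinned counts, the compared groups only or the ganglion score, 0 with the range of the sample numbers in the labels as a factor (the label range) or without the 6 ganglion-rich libraries, and 1 to 2 with 1 library left out. For 72 h minus 36 h, DESeq2 called 2, and 0 were called with no RUVr factor, limma-voom, library size only, the label range, thinned counts or without the 6 libraries, and 0 to 2 with 1 library left out. The label range is confounded with group at 24 and 72 h. No control shares a range with the SE 24 h libraries, and no SE 72 h library shares the range of Ctr 72 h. The cause of these changes was not tested.

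Directions turned for these log2FC values, of which Dll4 at 72 h had been called and the others had not. With the label range they were -0.0145 (Hes1, 12 h), -0.0312 (Hey1, 72 h), -0.13 (Notch3, 6 h), -0.13 (Hey1, 6 h) and 0.11 (Notch2, 24 h). Without the 6 libraries they were -0.0627 (Hes1, 12 h), 0.0103 (Hey1, 12 h), -0.55 (Hey2, 36 h), 0.0112 (Hey2, 24 h) and -0.18 (Dll4, 72 h). With the ganglion score they were 0.00845 (Hey1, 12 h) and -0.23 (Hey2, 36 h). With Ctr 12 h alone they were -0.0368 (Notch2, 6 h), -0.0809 (Notch3, 6 h) and -0.18 (Hey1, 6 h), and with Ctr 36 h alone -0.0422 (Notch3, 6 h) and -0.0841 (Hey1, 6 h). With Ctr 72 h alone they were -0.16 (Hes1, 6 h), 0.16 (Notch2, 24 h) and 0.0126 (Hey1, 24 h), limma-voom gave -0.0323 (Hes1, 6 h), and earlier controls gave -0.21 (Hey1, 72 h). With 1 library left out, Notch2 ranged from -0.0185 to 0.15 (12 h), -0.0442 to 0.28 (36 h), -0.16 to 0.36 (6 h) and -0.18 to 0.0286 (24 h), Hes1 from -0.0542 to 0.27 (12 h) and -0.22 to 0.17 (6 h), Hey1 from -0.50 to 0.0360 (12 h) and -0.0737 to 0.13 (6 h), Hey2 from -0.56 to 0.62 at 36 h, Jag1 from -0.0607 to 0.54 at 72 h, Notch3 from -0.16 to 0.15 at 6 h and Dll4 from -0.31 to 1.63 at 72 h.

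With the replicate number as a block, 4, 6, 5, 4 and 5 genes were called against controls, the same counts as without it. Same-numbered SE and Ctr libraries correlated in their deviations by -0.201 to 0.181. With 3 libraries per group, these correlations cannot decide whether the numbers pair them. Hes5 could not be tested where every library needed 10 counts.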
